A study of Mus musculus with 4 samples.

Results

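The regions described here are stretches of open chromatin that were called as ATAC-seq peaks in hair follicle stem cells of both genotypes and whose signal was relatively stronger in the cells without NFIB and NFIX. They were chosen by the measured values themselves: a knockout (dKO) peak had to overlap a wild-type (WT) peak by at least 1 bp, its centred dKO/WT ratio had to be at least 1.75, and its pileup had to reach at least the median of the dKO list. Of 52295 overlapping pairs of peaks outside the mitochondrial chromosome, 4220 met this rule, which is 8.07% of the pairs. The mirror rule, a ratio of at most the inverse of 1.75 with a WT pileup at or above the WT median, was met by 5056 pairs (9.67%), called weakened below. These counts follow from the rule and carry no test.

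ATAC-seq marks open DNA by letting a transposase insert sequencing adapters into it. The dKO cells came from 2 male mice (numbers 14 and 16) that carried Sox9-CreER, NFIBfl/fl and NFIXfl/fl with the reporter R26-YFPfl/fl, and the WT cells from 2 male littermates (numbers 13 and 15) with NFIBfl/fl, NFIXfl/fl and R26-YFPfl/fl and without Cre. All 4 mice were at postnatal day 70, when follicles rest for the second time (second telogen), and cells of back skin were sorted as DAPI-negative, Sca-1-negative, integrin α6-positive and CD34-positive. The dKO cells were in addition YFP-positive, and the 2 mice of a genotype shared 1 deposited peak list, so genotype, Cre, the YFP gate and differences between mice cannot be told apart and no difference below has a replicate check. Sox9-CreER is an inducible Cre that acts in cells expressing Sox9 at induction, and their descendants keep the change. The time of induction is not reported here. A larger share of cells with a region open and a more open region in each cell cannot be told apart either.

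NFIB and NFIX belong to the nuclear factor I family, transcription factors that bind a palindromic DNA site as dimers and are best known in many tissues for keeping or opening distal enhancers. In the resting follicle, the CD34-positive bulge cells hold the stem cells that rebuild the hair at the next growth phase. Their identity rests on enhancers shared by factors such as SOX9, LHX2, TCF7L1, TCF7L2 and NFATC1. Enhancers of other lineages are as a rule closed in these cells, and AP-1 (FOS and JUN dimers) sites are typical of enhancers that open on wounding. By the check of the cell type, all 27 matched genes of a list of hair follicle stem cell genes had at least 1 overlapping pair within 100 kb, against 5 of 12 immune, 5 of 10 muscle and 7 of 10 fibroblast genes. The share was also high for lists of other cells, at 9 of 10 genes each for endothelial, melanocyte and Merkel and nerve genes and 19 of 20 for housekeeping genes, so a pair nearby does not by itself mark the cell type.

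Sequence could be read only at promoters, from RefSeq promoter windows of GRCm38 that reach from 250 bases before to 50 bases after a start site. Wholly inside the dKO peaks of strengthened pairs lay 386 such windows, in 340 peaks. The first 3 protein-coding promoters by ratio that hold an AP-1 site (TGANTCA) upstream of the start are shown because such sites are the usual mark of inducible enhancers, with the site in capitals, 5′ to 3′ on the strand of the gene. They lie at chr16:16560237-16560356 (minus strand), chr15:7398481-7398600 (minus strand) and chr9:114400958-114401077 (plus strand).
Fgd4: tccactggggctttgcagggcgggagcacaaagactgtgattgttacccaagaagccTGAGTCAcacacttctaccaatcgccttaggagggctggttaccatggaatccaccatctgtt
Egflam: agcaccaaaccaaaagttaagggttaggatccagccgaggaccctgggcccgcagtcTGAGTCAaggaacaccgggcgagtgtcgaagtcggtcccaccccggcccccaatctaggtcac
Glb1: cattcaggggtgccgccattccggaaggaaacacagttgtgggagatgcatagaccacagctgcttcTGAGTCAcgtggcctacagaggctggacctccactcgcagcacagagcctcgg

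The next 3 are the first by ratio with the full NFI palindrome (TGGCNNNNNGCCA, in capitals) upstream of the start, shown because NFI is the family that was removed. They lie at chr2:127482593-127482712 (minus strand), chr1:161494487-161494606 (plus strand) and chr12:100778937-100779056 (plus strand).
Kcnip3: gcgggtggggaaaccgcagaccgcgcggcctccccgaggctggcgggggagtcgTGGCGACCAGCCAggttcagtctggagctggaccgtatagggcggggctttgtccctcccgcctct
Tnfsf18: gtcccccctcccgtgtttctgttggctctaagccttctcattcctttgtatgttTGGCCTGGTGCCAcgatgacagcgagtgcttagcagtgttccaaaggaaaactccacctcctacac
Dglucy: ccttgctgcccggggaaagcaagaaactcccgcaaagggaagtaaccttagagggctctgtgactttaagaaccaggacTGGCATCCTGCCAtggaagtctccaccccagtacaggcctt

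The last 3 are the protein-coding promoters with the highest ratio, shown with each CpG in capitals because the CpG content of the strengthened promoters lay between that of the weakened and that of the uncalled ones. They lie at chr12:17881753-17881872 (plus strand), chrX:79517352-79517471 (minus strand) and chr1:134037134-134037253 (plus strand).
Gm9222: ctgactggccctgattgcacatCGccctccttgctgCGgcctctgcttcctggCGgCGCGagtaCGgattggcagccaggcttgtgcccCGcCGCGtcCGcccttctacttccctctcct
Cfap47: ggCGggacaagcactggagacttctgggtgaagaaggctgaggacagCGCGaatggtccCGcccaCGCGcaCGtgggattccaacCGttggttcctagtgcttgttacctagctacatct
Fmod: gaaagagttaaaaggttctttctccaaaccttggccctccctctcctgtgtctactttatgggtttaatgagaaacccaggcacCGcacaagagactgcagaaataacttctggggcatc

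The values behind the rule are the deposited pileups, the number of reads or fragments stacked at the summit of a peak. The WT list was deeper, with a median pileup of 73 over 68192 peaks against 38 over 63545 dKO peaks. Each pileup was therefore divided by the median of its list, and the dKO/WT ratio was divided by its median over all pairs, 0.895. On this centred scale a ratio of 1 is a raw dKO pileup of 0.466 times the WT pileup, and the threshold of 1.75 is a raw dKO pileup of 0.815 times the WT pileup. A member is thus stronger relative to the other shared regions, and its raw pileup need not be higher in dKO. It was higher in 2667 of the 4220 members (63.2%), against 2.67% of all other pairs. Both pileups enter the rule, so this contrast follows in large part from it.

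Among the members the ratio had a median of 2.41, with quartiles of 2.00 and 3.28. It reached 3 in 1317 members, 5 in 316 and 10 in 34, and lay under 2 in 1067. The median dKO pileup was 65 (quartiles 49 and 96, range 38 to 2926) and the median WT pileup 54 (quartiles 38 and 82, range 15 to 2730). The members were mostly weak to middling peaks in WT: scaled to its list, their median WT pileup was 0.740, against 1.41 for pairs that neither rule called. The WT pileup is the denominator of the ratio, so a low value follows in part from the rule. The exact 95% interval of the ratio, which covers counting error only, lay above 1.75 in 1906 of the 4220 members. It comes from the same pileups that chose the members, so this count is a description. The intervals of single ratios, here and below, make no allowance for that choice or for picking the highest ratios.

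**Figure D1:**
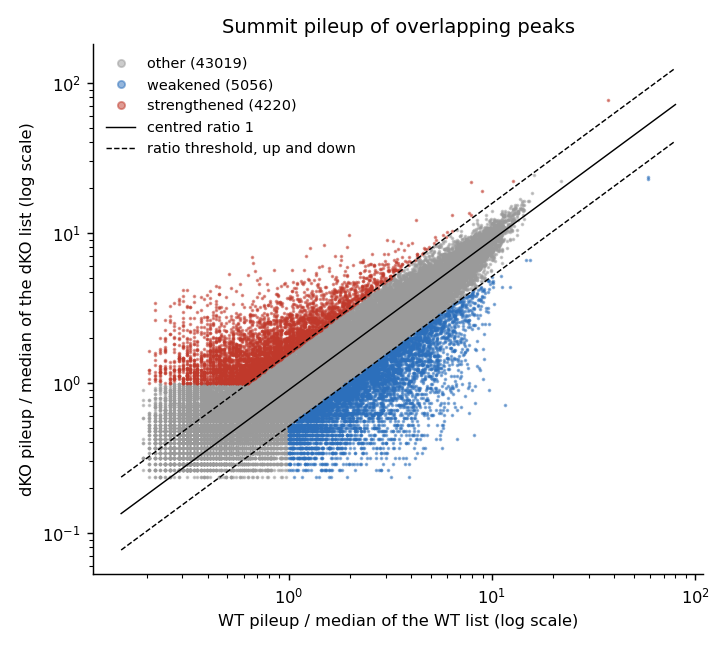
Each point is a pair of overlapping peaks, placed by its WT pileup (x axis) and dKO pileup (y axis), each divided by the median of its list, on log axes; the solid line is a centred ratio of 1 and the dashed lines are the thresholds. The 4220 strengthened pairs lie above the upper dashed line and at or above a dKO value of 1, and grey points above that line had a dKO pileup below the median.

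Width went with the ratio when members were chosen by pileup. The median width of a member was 903 bp in dKO and 757 bp in WT, whereas over all other pairs it was 764 bp in dKO and 955 bp in WT. The dKO peak was the wider of the pair in 71.0% of members and in 26.3% of all other pairs. Width comes from the same reads as the pileup and is given as a description. With members chosen by the deposited fold in place of the pileup, their median dKO width was 791 bp (776 to 809) against 782 bp for all other pairs. The WT and dKO summits of a member lay a median of 48 bp apart and within 200 bp of each other in 91.0%, close to the 46 bp and 87.9% of all other pairs.

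At the edge of the rule, the 3 members with the lowest ratio were near Srsf5 (pileup 53 in dKO and 65 in WT), near Krt17, a keratin of the follicle and of wounded skin (84 and 103), and inside Arid1b, a subunit of the BAF remodelling complex (84 and 103), all at a ratio of 1.75. The 3 pairs just outside were inside Sema3c (256 and 314), Abca12 (97 and 119) and Adgrv1 (44 and 54), at ratios that also round to 1.75. Nothing separates these pairs but the threshold. With the deposited fold over local background in place of the pileup, 1501 pairs met the rule, and 883 of them were among the 4220, which is 20.9% of the members and 58.8% of that set. The median fold of the members was 10.0 in dKO and 6.52 in WT, and 7.02 and 7.62 over all other pairs.

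As the ratio itself favours, the members with the highest ratios were regions that were weak in WT and middling or strong in dKO. Of the 24 with the highest ratio, none lay at a gene end, 9 lay inside a protein-coding gene and 15 between genes, and 10 of these were over 100 kb from any protein-coding gene. Over all members the shares were 9.74% at gene ends, 41.5% inside genes, 48.7% between genes and 17.4% over 100 kb from a gene. The 24 are few, and their counts were not tested against these shares.

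The first was inside Kctd16, an auxiliary subunit of GABA-B receptors, with a pileup of 129 in dKO and 16 in WT and a ratio of 17.3 (95% counting interval 10.3 to 31.2). The second, at chr8:73377995-73379014, lay 615 kb from its nearest protein-coding gene, F2rl3, with 116 in dKO and 16 in WT (ratio 15.6). A region at chr15:50416948-50417988 had 159 in dKO and 22 in WT, a ratio of 15.5 (9.90 to 25.5). It lay 237 kb from Trps1, a GATA-type repressor needed for hair follicle development. A region at chr15:41232306-41233484 had 159 in dKO and 23 in WT, a ratio of 14.8, and lay 128 kb from Zfpm2, a cofactor of GATA factors.

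Further down were regulators known from skin and from other tissues. The region at chr4:72388078-72388877, 187 kb from Tle1, a Groucho corepressor, had 144 in dKO and 22 in WT. The region at chr13:28690249-28691119, 258 kb from Sox4, an SRY-box factor of progenitor cells, had 106 and 19. Inside Klf12, a Krüppel-like repressor, the region at chr14:99911720-99913021 had 156 and 30, a ratio of 11.2 (7.51 to 17.1).

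The largest dKO pileup among the 24 was inside Nemp2, at chr1:52578111-52579261, with 261 in dKO and 48 in WT (ratio 11.7). Ptprn2, a phosphatase-like protein of secretory granules in neuroendocrine cells, gave 3 of the 24. These had dKO pileups of 137, 131 and 167 and WT pileups of 21, 25 and 32. The lowest ratio among the 24 was 11.2.

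The strongest peaks of the set, chosen after their values were seen, were of another kind. The region with the highest pileup, at chr2:98666245-98667311, had 2926 in dKO and 2730 in WT (ratio 2.30), and a second at chr2:98662238-98663868 had 839 and 926. They lay 1035 and 1031 kb from the nearest protein-coding gene, and as background, this stretch of chromosome 2 is commonly held in exclusion lists of mouse regions with abnormal read depth. Whether the submitters applied such a list is not given in the sources used here. A peak of 384 bp inside Myo3a had 827 in dKO and 577 in WT (ratio 3.08). Among the strong members inside other genes were Tbc1d4, a regulator of glucose transporter traffic, with 459 and 310, and Ano3, a membrane scramblase, with 500 and 464.

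Position was not used by the rule. Strengthened regions were distal: 9.74% lay at a gene end (no more than 1 kb from the start or the stop of a protein-coding gene; 95% Wilson interval 8.88 to 10.7), against 23.6% of all other pairs, a difference of -13.9 percentage points (Newcombe interval -14.8 to -12.9). Between genes lay 48.7% of members (47.2 to 50.3) and 35.2% of all other pairs, a difference of 13.6 points (the shares of the others had an interval of 34.8 to 35.6). Inside gene bodies the shares were 41.5% and 41.2%, a difference of 0.289 points with an interval from -1.25 to 1.85. These intervals treat regions as independent and cover counting error only.

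Strong peaks are often promoters, so the shares were also set side by side within quintiles of the dKO pileup. In the third quintile, 7.83% of members and 15.2% of the others lay at gene ends. In the fourth the shares were 10.6% and 30.8%, and in the top one 13.2% and 57.9%. The lower share at gene ends thus held at each level of pileup the rule allowed. The body share was below that of the others in the third quintile (43.5% against 46.3%) and above it in the top quintile (37.1% against 23.4%).

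The weakened regions were distal too, with 5.76% at gene ends, 46.6% in bodies and 47.7% between genes. A low share at gene ends was therefore found in both directions. The strengthened set differed from the weakened one by 3.98 points at gene ends (2.89 to 5.10) and by -5.04 points in gene bodies (-7.06 to -3.01). Between genes the difference was 1.06 points, with an interval from -0.983 to 3.10. Regions inside a long noncoding RNA gene and no protein-coding gene made up 9.93% of strengthened, 8.84% of weakened and 6.92% of the uncalled pairs.

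Where the members stood apart from both other sets was in gene-poor stretches. The number of protein-coding genes with their midpoint within 500 kb of the summit had a median of 6 for members, 9 for weakened regions and 10 for uncalled pairs. When all pairs were cut into quintiles by this number, 13.8% of pairs were strengthened in the quintile with the fewest genes (0 to 4; interval 13.1 to 14.5). The share then fell through 9.99%, 8.08% and 5.70% to 2.78% in the quintile with the most genes (20 to 73; interval 2.48 to 3.12). The weakened share moved less, from 10.7% to 8.11%.

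The same order held away from gene ends, where the strengthened share went from 14.3% to 3.65%. It also held within each quintile of dKO pileup that holds members: from 29.4% to 6.92% in the third, from 29.5% to 4.71% in the fourth and from 16.6% to 0.996% in the top one. With the deposited fold the shares were 5.83% and 0.927%. The median log2 ratio over all pairs moved with it, from 0.17 in the gene-poorest quintile to -0.11 in the gene-richest. Base composition of the regions was not analysed here, since no genome of the build was used, and its part in this order was not tested.

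**Figure D2:**
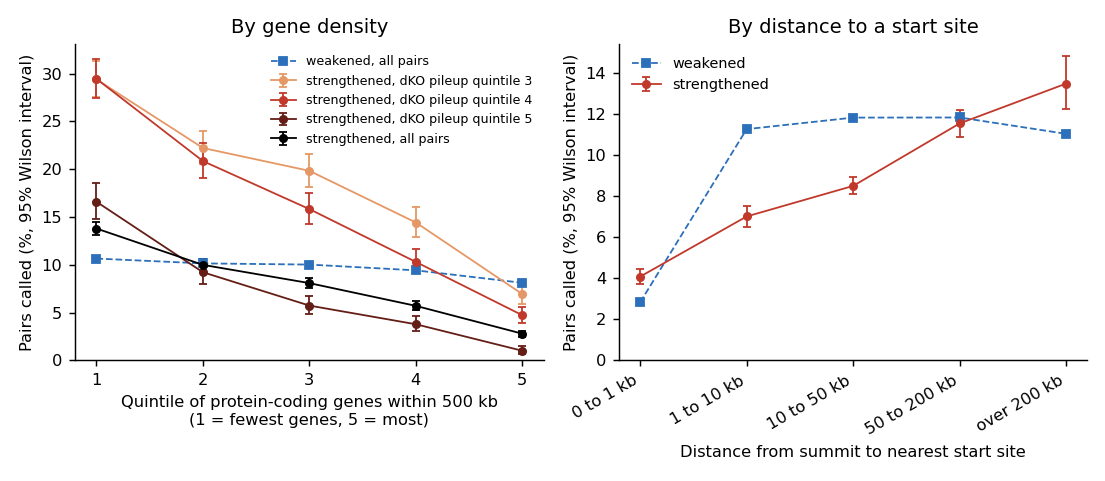
Left, the share of pairs called (y axis, percent) by quintile of gene density (x axis, 1 is the fewest protein-coding genes within 500 kb), for strengthened pairs over all pairs and within 3 quintiles of dKO pileup, and for weakened pairs over all pairs. Right, the share of strengthened and of weakened pairs by distance from the summit to the nearest start site; bars are 95% Wilson intervals. The strengthened share falls from 13.8% to 2.78% with gene density and rises from 4.08% to 13.5% with distance.

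Distance to a start site gave the same picture. Within 1 kb of a RefSeq start site 4.08% of pairs were strengthened, at 1 to 10 kb 7.02%, at 10 to 50 kb 8.51%, at 50 to 200 kb 11.6% and beyond 200 kb 13.5%. The weakened share was lowest within 1 kb (2.83%) and nearly level from 1 to 10 kb outward, between 11.0% and 11.8%. Over 100 kb from any protein-coding gene lay 735 members (17.4%), against 12.9% of weakened and 7.15% of uncalled pairs. By chromosome the strengthened share of pairs ran from 5.27% on chromosome 11 to 10.3% on chromosome 13, and it was 8.29% on the X.

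Peaks called in only 1 of the lists are no pairs and were not used by the rule. A dKO-only peak lay within 50 kb of 64.9% of members (63.4 to 66.3) and of 49.0% of all other pairs, a difference of 15.8 points (14.3 to 17.3). A WT-only peak lay within 50 kb of 55.9% of members and of 70.9% of all other pairs, a difference of -15.0 points (-16.6 to -13.5). The weakened regions were the other way round for WT-only peaks, with 80.5%, and at the level of the other pairs for dKO-only peaks, with 48.3%. More dKO-only than WT-only peaks surrounded 39.2% of members, 20.4% of uncalled and 15.7% of weakened pairs. The members had somewhat fewer pairs around them, a median of 4 within 50 kb against 5 for weakened and for uncalled pairs. No pair lay within 50 kb of 10.3% of members, 3.56% of weakened and 5.98% of uncalled pairs. The part of this lower density in the neighbour shares was not tested.

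The members also lay near each other. Another strengthened region was found within 50 kb of 44.2% of members, and any strengthened region within 50 kb of 22.8% of all other pairs, a difference of 21.4 points (19.8 to 22.9). A weakened region lay within 50 kb of 21.4% of members, 34.5% of uncalled pairs and 36.6% of all other pairs. Grouping was not particular to the members: another weakened region lay within 50 kb of 55.0% of the weakened pairs. In 807 weakened pairs and 37 members the WT peak overlapped more than 1 dKO peak. The part of such split peaks in the grouping was not tested. The nearest other pair within 50 kb of a member had a median log2 ratio of 0.44 (quartiles -0.05 and 1.07) and lay above 0 in 72.9% of 3785 cases, against 47.8% beside uncalled and 28.2% beside weakened pairs. Neighbouring peaks come from the same libraries, so these shares describe how the signal is spread along the genome.

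**Figure D3:**
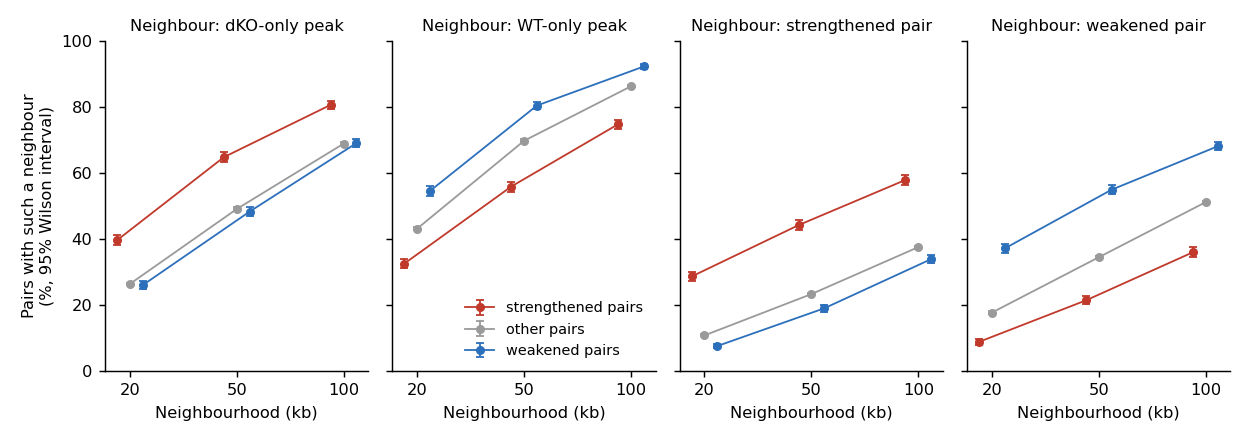
Share of pairs (y axis, percent, with 95% Wilson intervals) that have a neighbour of the named kind within 20, 50 or 100 kb (x axis), for strengthened, weakened and uncalled (other) pairs. Strengthened pairs have dKO-only peaks and other strengthened pairs around them more often, and WT-only peaks and weakened pairs less often, at each of the 3 distances.

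Over windows of 1 Mb with at least 10 pairs, 1636 in all, 247 held 5 or more members, 20 held 10 or more and 332 held none. The window with the most was chr10:56000000-56999999, with 18 members among 52 pairs and 38 pairs above a log2 ratio of 0. Its genes include Gja1, which encodes connexin 43, the main gap junction protein of the epidermis. The next were chr2:9000000-9999999 with 13 members of 46 pairs and no protein-coding gene within 100 kb of those members, chr3:101000000-101999999 with 13 of 65 and chr14:105000000-105999999, around the ubiquitin ligase adaptor Ndfip2, with 13 of 41. In 22 windows the median ratio of all pairs was itself at least 1.75.

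Of the members, 3485 lay within 100 kb of a protein-coding gene and were assigned to the nearest, which gave 2264 of the 14546 genes that had any pair (15.6%). Most of these genes, 1550, had 1 member, 423 had 2, and 291 had 3 or more. Of the 2264 genes, 721 (31.8%) also had a weakened region, against 2767 (19.02%) of the 14546; genes with a member had a mean of 7.46 pairs and all genes 3.29. Nearest-gene assignment says nothing of which gene a region acts on.

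Pde4d, a phosphodiesterase that degrades cyclic AMP, had the most, with 12 of its 29 pairs and no weakened one. Its members all lay in the gene body, with dKO pileups of 43 to 216, WT pileups of 17 to 243 and ratios of 1.91 to 5.43. Around it lay 12 dKO-only and 5 WT-only peaks. Nrg1, the ErbB ligand neuregulin, had 8 of 15, with dKO pileups of 42 to 126 and WT pileups of 17 to 86. None of its pairs was weakened, and all 13 pairs of the window chr8:32000000-32999999, where it lies, were above a log2 ratio of 0.

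Elk3, an ETS-family repressor induced in wounds and in vessels, had 7 of 12. The members ran from the gene into the stretch beside it, over chr10:93282318-93362111. The strongest contrast there was at chr10:93326982-93327794, with a pileup of 76 in dKO and 18 in WT and a ratio of 9.06 (5.37 to 16.1). The region with the highest pileup, at chr10:93356921-93357846, had 158 in dKO and 123 in WT.

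Ptprn2 and Plcl1, a phospholipase C-like inhibitor, had 8 members each, of 18 and 24 pairs. Tmem108 had 7 of 18 pairs, Rabgap1l 7 of 15, Lclat1 7 of 14, Dpysl3 7 of 7 and Auts2 7 of 41. Beside these members, Tmem108 had 2 weakened pairs and Auts2 had 4. Rbfox1 had 6 of 20 and Ctnnd2 had 6 of 9. At Dpysl3, a collapsin response mediator of growing neurites, all 7 pairs were members, with ratios of 1.77 to 4.88 and dKO pileups of 50 to 154 against 22 to 156 in WT. Among genes with at least 3 pairs, 8 had members only; the others were Ccdc182 (5 pairs), Adarb2 (4) and Gm3213, Ctsc, Ankrd66, Etv1 and Adcy7 (3 each).

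**Figure D4:**
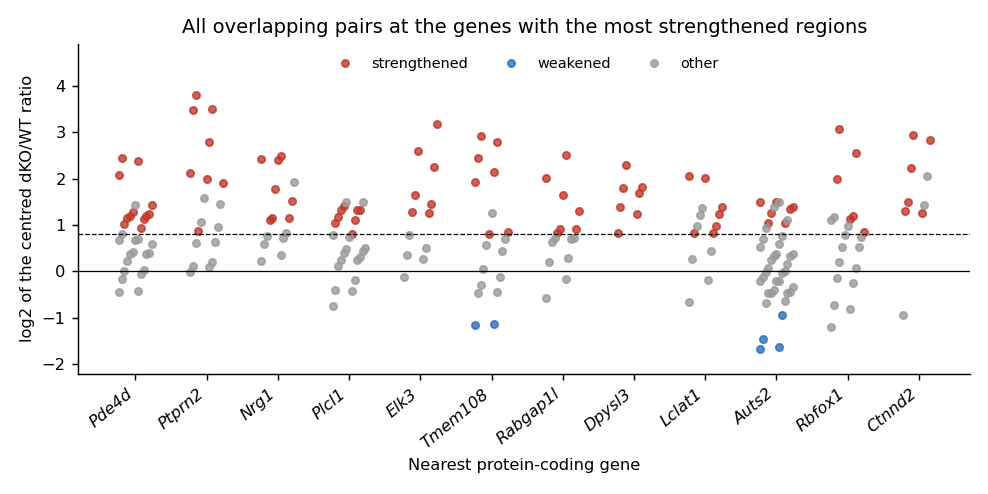
Log2 of the centred dKO/WT ratio (y axis) of every pair assigned to the 12 genes with the most strengthened regions (x axis); the dashed line is the threshold, and grey points above it had a dKO pileup below the median of the list. At Dpysl3 all 7 pairs are strengthened, and at Auts2 4 of 41 pairs are weakened.

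At the genes of the targeted family, 2 of 101 pairs were strengthened (1.98%, 0.545 to 6.93), against 7.29% of all pairs with a gene within 100 kb. Nfib had 57 pairs, of which 1 was strengthened (chr4:82253285-82253941, pileup 42 in dKO and 32 in WT) and 9 were weakened. Nfia had 1 of 19 (chr4:97785282-97786036, 39 and 42), with 17 dKO-only and 5 WT-only peaks around it, against 11 and 14 at Nfib. Nfix, Nfic and, outside the family, Sox9 had no member among 17, 8 and 7 pairs, and by a limit of 3 counts this allows shares of up to 17.6%, 37.5% and 42.9%. Loss of the floxed exons cannot be read from peaks and was not analysed here.

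For gene lists the background is the share over all pairs with a gene within 100 kb: 3485 of 47833, or 7.29%, with a median log2 ratio of -0.01; the weakened share over the same pairs was 9.21%. The lists were written with earlier results of these data known, and shares are given with Wilson intervals as a description. The genes of hair follicle stem cell identity had 28 members among 332 pairs (8.43%, 5.90 to 11.9) and a median log2 ratio of -0.03, close to the background. They also had 43 weakened pairs (12.95%). Tcf7l2, a WNT effector of these cells, had 4 of 32 beside 3 weakened. Lgr5, the R-spondin receptor that marks the lower bulge and hair germ, had 3 of 17 beside 3 weakened, and a median log2 ratio of 0.01. Its members all lay in its body, with pileups in dKO and WT of 67 and 40, 116 and 86, and 50 and 35. Postn, a matrix protein of the bulge, had 3 of 12.

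The list of quiescence, BMP and TGF-β genes had 14 of 285 (4.91%, 2.95 to 8.08), an interval that includes the background of 7.29%. Ltbp1, which anchors latent TGF-β in the matrix, had 5 of the 14, all in its body. At chr17:75254654-75255750 the pileup was 117 in dKO and 27 in WT (ratio 9.30, 6.08 to 14.7), and at chr17:75258397-75259205 it was 150 and 52. The receptor gene Tgfbr2 had 2 of 12 and Id2, a BMP target, had 1 of 9 beside 4 weakened.

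Genes of the growing hair and its lineages had 14 of 142 (9.86%, 5.96 to 15.9). Trps1 had 6 of 21, apart from the distal region with the ratio of 15.5, which lay too far away to be assigned. Ctsc, a lysosomal protease, had 3 of 3, and its most distal region at chr7:88214564-88215464 had 83 in dKO and 29 in WT. Edar, the ectodysplasin receptor of placodes, had 2 of 9. WNT pathway genes had 27 of 288 (9.38%, 6.52 to 13.3) and 46 weakened pairs (15.97%), with 3 members of 6 at the receptor gene Fzd1, 3 of 10 at Fzd10 and 2 of 2 at the ligand gene Wnt16.

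Lists of other epithelial fates had shares of 10.4% to 11.6%, with lower bounds of the intervals of 6.18% and 7.61%. The list of epidermis and barrier genes had 20 of 173 (11.6%, 7.61 to 17.2); with genes within 20 kb it had 12 of 113 (10.6%, 6.18 to 17.6), an interval that includes the 6.58% of all pairs at that distance. Cebpb, a bZIP factor of differentiating keratinocytes, had 6 of 15, all between genes over chr2:167708325-167775353, with ratios of 1.81 to 2.72. Abca12, the lipid transporter of the skin barrier, had 4 of 14 and Tgm3, a transglutaminase of hair and cornified cells, 2 of 5. The list of upper follicle and sebaceous genes had 13 of 125 (10.4%, 6.18 to 17.0). Its Prdm1, the repressor BLIMP1 found in sebaceous and differentiating cells, had 2 of 12 beside 1 weakened. Both members were steep, with 139 in dKO and 30 in WT at chr10:44564647-44566334 and 89 and 33 at chr10:44604293-44605159. Lrig1, a marker of the upper follicle, had 3 of 21 with ratios no higher than 1.85, beside 2 weakened.

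Wound, stress and AP-1 genes had 20 of 238 (8.40%, 5.51 to 12.6), 7 of them at Elk3. Areg, an EGF receptor ligand of injured epithelium, had 2 of 6, with 52 and 57 in dKO against 25 and 27 in WT. Tnc, a matrix protein of wounds, had 3 of 22 beside 2 weakened. The RUNX, KLF, TEAD and ETS genes had 19 of 204 (9.31%). Etv6, an ETS repressor, had 4 of 17, among them a strong region at chr6:134329360-134330675 with 266 in dKO and 123 in WT (ratio 4.64, 3.73 to 5.80). Klf12 had 3 of 7, with dKO pileups of 50, 156 and 146 against 28, 30 and 43 in WT, and Klf7 had 3 of 10.

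Adhesion, basal keratin and matrix genes had 22 of 390 (5.64%), with 3 members each at Tfap2a, Cd44 and Dst. Beside these members, Cd44 had 3 weakened pairs, and Tfap2a and Dst had 1 each. One region beside Tfap2a, a factor of the surface ectoderm, stood out, at chr13:40676426-40677247 with 142 in dKO and 36 in WT (ratio 8.47, 5.84 to 12.6). The cell cycle list had 6 of 93 (6.45%), 3 of them at Cdk6, 1 at E2f3 and 1 at Cdk1. Of the 20 housekeeping genes, 19 had a pair, and none of their 33 pairs was strengthened, which allows a share of up to 9.09% by the limit of 3 counts (10.4% by the Wilson bound), while 7 were weakened (21.2%).

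Genes of neuronal adhesion and the synapse had 54 of 257 pairs strengthened (21.0%, 16.5 to 26.4), spread over 18 of the 22 genes with a pair, and a median log2 ratio of 0.39. The list holds genes that earlier results of these data had pointed to, so its direction is not independent evidence. Rbfox1, a neuronal splicing factor, had 6 of 20, with the steepest region at chr16:6718847-6719562 (82 in dKO and 21 in WT) and 22 dKO-only against 5 WT-only peaks. Ctnnd2, the neural catenin, had 6 of 9, among them 104 and 29 at chr15:30345299-30346330 and 103 and 31 at chr15:30364234-30365272, with 14 dKO-only and 1 WT-only peak. Macrod2 had 6 of 39 beside 6 weakened.

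These genes are long and lie in gene-poor stretches, and 229 of the 257 pairs were in the gene-poorest quintile. There 53 of the 229 were strengthened (23.1%, 18.2 to 29.0), against 12.03% (11.3 to 12.8) of the 7268 other pairs with a gene in that quintile. In the second quintile the list had 1 of 25 (4%, 0.710 to 19.5), against 9.44% of the other pairs there. Over all genes the strengthened share of pairs in the gene body rose with gene length, from 4.52% in genes under 50 kb through 7.83% and 10.5% to 14.8% in genes of 500 kb or more. The weakened share stayed between 10.3% and 11.2% across these lengths. How much of the list's share goes with length was not tested.

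Among markers of other cell types of the skin, pairs were few. Merkel and nerve genes had 6 of 24 (25%), 4 of them at Piezo2, the mechanosensitive channel, with the steepest at 103 in dKO and 24 in WT. The other 2 were at Snap25 and at Isl1. Fibroblast genes had 1 of 21 (at Col1a1), melanocyte genes 1 of 33 (at Mitf) and endothelial genes 2 of 35 (at Pecam1 and Emcn). Beside these members, Mitf had 4 weakened pairs and Emcn had 2. Immune and muscle genes had 0 of 8 each, which allows a share of up to 37.5% by the limit of 3 counts (32.4% by the Wilson bound). The part of other cells in the strengthened set was not tested.

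**Figure D5:**
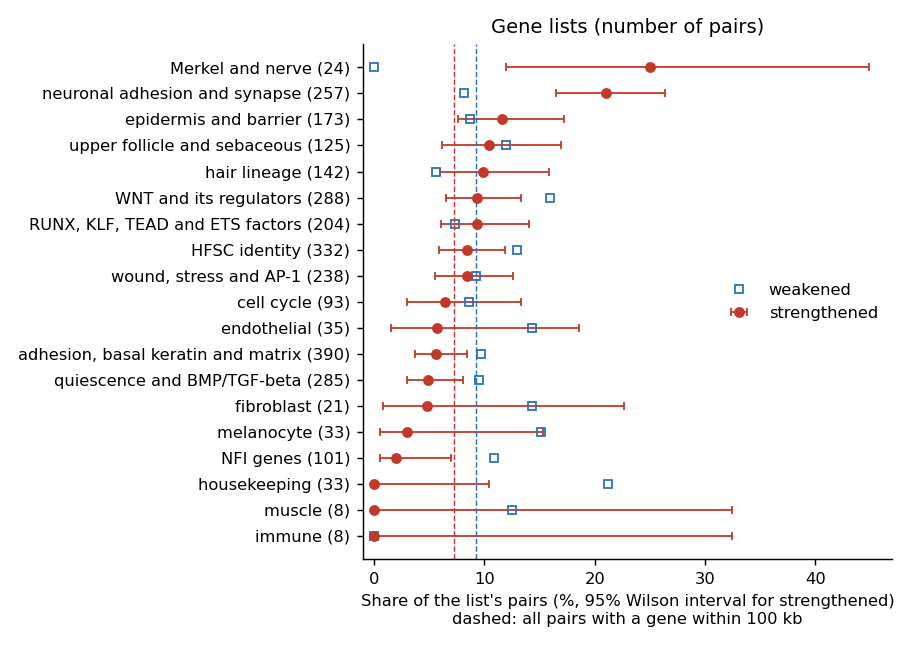
Share of each gene list's pairs that were strengthened (filled points with 95% Wilson intervals) or weakened (open squares), in percent (x axis); the number of pairs stands beside each list, and dashed lines are the shares over all pairs with a gene within 100 kb. The neuronal list at 21.0%, the small Merkel and nerve list at 25% and, by a narrow margin, the epidermis list at 11.6% have intervals wholly above the strengthened background of 7.29%; for the epidermis list this was lost with genes within 20 kb.

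At promoters, members held fewer CpG than uncalled pairs and more than weakened ones, with wide overlap. Their 386 windows had a median of 15 CpG (quartiles 7 and 25.8) and 59.3% GC, against 23 CpG (16 and 31) and 62.7% GC in the 11080 windows of uncalled pairs. The 128 weakened windows had 8 CpG and 54.7% GC, and all 32851 promoter windows had 7 CpG and 52.7% GC. Among windows inside a dKO peak, 13.3% of those with under 5 CpG belonged to a member, then 8.97%, 3.47% and, with 20 or more CpG, 2.00%. Of the member windows 91 were of long noncoding RNA genes (23.6%), against 13.3% of the windows of uncalled pairs. Strengthened promoters were thus poorer in CpG than those of uncalled pairs, and richer than promoters as a whole.

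The 3 promoters with the highest ratios differ among themselves in this. In the 120 bases printed above, Gm9222 (124 in dKO and 55 in WT, ratio 4.84) holds 10 CpG, Cfap47, a protein of cilia and flagella (48 and 23), holds 8, and Fmod, the collagen-binding proteoglycan fibromodulin (46 and 23), holds 1. Other protein-coding promoters with high ratios were Rprm, a cell cycle inhibitor (62 and 33), Pdgfd, a PDGF receptor ligand (49 and 29), and Robo1, the SLIT receptor (197 and 120). The highest of all was the noncoding Gm42245, with 84 in dKO and 24 in WT.

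Motifs were searched on both strands of these windows, and a match is a description of letters, not of binding. The intervals treat windows as independent, though the 386 member windows lie in 340 peaks and the 11080 uncalled windows in 8419. Windows in the same peak share its call, so the intervals may be too narrow. The NFI palindrome TGGCNNNNNGCCA was in 6 member windows (1.55%), in 0.930% of uncalled and in 0.807% of all promoter windows, and the difference from all other pairs had an interval from -0.227 to 2.44 points. AP-1 TGANTCA was in 6.48% of member, 4.77% of uncalled, 15.6% of weakened and 7.81% of all windows. The intervals of the difference from all other pairs include 0 for both motifs. The AP-1 windows printed above belong to Fgd4, an activator of CDC42 (60 in dKO and 39 in WT), Egflam, a matrix protein (93 and 73), and Glb1, the lysosomal beta-galactosidase (175 and 143).

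ETS and Sp/KLF letters were rarer in member windows than in those of all other pairs. The ETS site CCGGAAG was in 8.55% of member and 19.5% of uncalled windows, a difference of -10.9 points from all other pairs (-13.4 to -7.60). It was in 12.5% of weakened and 8.86% of all promoter windows. The Sp/KLF box GGGCGG was in 57.0% and 69.7%, a difference of -12.4 points (-17.4 to -7.45), while it was in 43.8% of weakened and 35.7% of all promoter windows. The SOX core ACAAAG was in 16.8% and 11.8%, a difference of 4.99 points (1.53 to 9.09), and RUNX TGTGGT in 14.5% and 10.9%, a difference of 3.57 points (0.351 to 7.47). In weakened windows SOX was in 19.5% and RUNX in 13.3%, and over all promoters they were in 18.7% and 16.8%. A higher share than in uncalled windows was thus not particular to the members for either motif. TEAD GGAATG (11.7% and 11.4%) and CCAAT (37.0% and 38.7%) had intervals of the difference that include 0. Member windows also held fewer CpG than uncalled ones, and how far these motif shares go with CpG content was not tested.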

How the data were processed

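Peak lists of ATAC-seq were used, 1 per genotype, which the labels give to both mice. The submitters' processing notes name Bowtie2 2.2.9, Picard and MACS2 and the builds mm10 and GRCm38. The sources used here do not say how mice were pooled, how duplicates were handled or if reads were shifted. The signal column is the deposited pileup at the summit, in whole reads or fragments and not scaled for depth, per the file headers. The authors' fold column is a ratio of pileup to local background. The deposited −log10 p and −log10 q columns had damaged headers and were read by position; a Poisson p from pileup and fold came within 0.001 of the authors' −log10 p in 99.98% of the 62811 WT and 99.997% of the 62822 dKO peaks with a value below 250. Mitochondrial peaks (5 WT, 3 dKO) were left out.

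Each dKO peak that overlapped a WT peak by 1 bp or more (the WT peak of highest pileup where there were several, as in 60 members) formed a pair. A dKO peak's pileup and the WT pileup were scaled and centred as the report states. The number of overlapping peaks equalled that of bedtools 2.31.1. The rule was tried on simulated pileups of the real pairs, with a change put only into pairs with a strong WT peak. Recovery at the lower pileups and ratios of most members was not tested. Positions and nearest genes come from RefSeq tables of GRCm38.p6, and 427 of 431 listed symbols matched. The members, lists and tests were chosen with earlier results of these data known, and the motifs after a first look at the promoters. No genome of the build was used, so promoter windows replaced the windows around summits that the design had named; they do not cover chromosome 18. Named are the 24 members with the highest ratio, the 12 genes with most members, up to 3 genes per list with the most members, the NFI genes and Sox9, 3 pairs on each side of the threshold and the 4 windows of 1 Mb with most members; where several met a rule, only some are described. With 1 list per genotype no p-value was computed. Intervals are exact (ratios), Wilson (shares) and Newcombe (differences) at 95%. Pileups of 38 to 96, as in most members, make single ratios imprecise. Alternatives were other overlaps, pairings, measures, centrings, thresholds, peak q values, distances and strength quintiles; shares by start site, gene density, gene length and neuronal list were added after the data were seen. Python 3.11.15, numpy 2.4.6, pandas 2.3.3 and scipy 1.17.1 were used.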

Additional observations from a re-analysis of the deposited data

How the results depend on the processing

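The count of members stayed within 1.5 times 4220 under 9 of 11 alternatives, of which a counting interval above 1 could not differ, since the rule already fixes it; it was 1643 with a dKO scaled pileup of at least 2 and 1501 with the deposited fold. Members kept of the 4220 were 99.98% with an overlap of 50%, 99.9% with the nearest summit, 95.2% for peaks that overlapped 1 to 1, 90.0% for summits within 200 bp, 77.5% at a q value of 1e-05 or less, 74.7% at a ratio of 2 and 20.9% with the fold. The lower share at gene ends, the higher share between genes and the orders of neighbours and gene density kept their direction under each alternative run. The gene body share, close to that of the other pairs, turned below it with the fold (40.2%), at a scaled pileup of at least 2 (38.2%) and in the third quintile of dKO pileup (43.5%). The cause of these shifts was not tested.

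With the fold, members were at gene ends in 5.93% and between genes in 53.8%, the median width was 791 bp (782 bp for all other pairs), dKO-only, WT-only and strengthened neighbours were found for 59.0%, 51.2% and 15.7%, 997 genes had a member, 13 windows of 1 Mb held 5 or more, and the strengthened share was 5.83% in the gene-poorest quintile and 8.95% at the neuronal list (2.41% at all other pairs with a gene). At a scaled pileup of at least 2 the same values (gene ends, width, neighbours, genes, windows, gene-poorest quintile, neuronal list) were 11.7%, 1020 bp, 67.9%, 53.1% and 27.0%, 1048, 27, 5.86% and 9.34%. At a ratio of 1.5, gene ends, between genes, the neighbours, windows and the gene-poorest quintile gave 12.8%, 45.2%, 62.7%, 58.4%, 50.1%, 420 and 17.8%. At a ratio of 2 they gave 7.64%, 50.7%, 66.7%, 54.2%, 39.1%, 141 and 11.0%, and the median of promoter CpG was 12. Centring within 20 bins of strength gave 10.7% at gene ends, 45.8% with a strengthened neighbour and 14.7% in the gene-poorest quintile. With peaks of a q value of 1e-05 or less the width was 936 bp, strengthened neighbours 38.1%, windows 155 and the gene-poorest quintile 12.6%. Summits within 200 bp gave a width of 883 bp and 41.5% with a strengthened neighbour. Gene ends held 11.8% of members within 2 kb, 11.5% by start sites within 1 kb, and 7.83% and 13.2% in the third and the top quintile of dKO pileup, with 37.1% in gene bodies in the latter. Neighbours within 20 kb were 39.6% (dKO-only), 32.5% (WT-only) and 28.6% (strengthened), and within 100 kb 80.8%, 74.9% and 57.9%.

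No paired analysis was possible because each genotype had 1 list and the labels share no replicate numbers. For the same reason leaving out a mouse was not run. Windows of other widths around summits were not run, since no genome of the build was used here. Single ratios rest on low pileups, and their intervals, like those of the shares, leave out the spread between mice.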
